A study of Mus musculus with 12 samples.

Results

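Rab GTPases are small proteins that mark the membranes of the cell and decide where vesicles form, move and fuse. The genes described here carry a symbol made of Rab followed directly by a digit. Names ending in -ps (pseudogenes) and names of partner proteins such as Rab11fip1 or Rab3gap1 were left out. Of 59 symbols of this form in the table rows used, 48 held 60 or more read counts summed over the 12 libraries, and these 48 genes are the members. By comparison, 12958 of all genes in those rows reached that minimum. The members closest to it were Rab33a with 68 counts and Rab42 with 144 counts, and the symbols just under it were Rab15 with 57 counts and Rab30 with 35 counts.

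The RNA came from bone-marrow-derived macrophages (BMDMs), which are primary mouse cells that mature from marrow in culture, here for 7 days in medium conditioned by L929 cells. Marrow donors were C57BL/6 mice (C57BL/6N in the sample labels), either wild-type (WT) or Alpk1-/- (KO); neither the age of the mice nor the deleted stretch of Alpk1 is stated. ALPK1 is a kinase that is switched on by ADP-heptose (ADP-Hep), a sugar nucleotide of Gram-negative bacteria. Cells were given PBS or 100 µM ADP-Hep for 4 h, so the 4 groups are WT PBS, WT ADP-Hep, KO PBS and KO ADP-Hep, with 3 libraries each. Nothing in the labels says whether the libraries of a group come from separate mice or cultures, so the p-values measure the spread between these libraries. KO ADP-Hep values are given in the order replicate 1, replicate 3 and a library whose number matches no label. That library was placed in the KO ADP-Hep group by the start of its column name alone. No count column matched the sample labelled KO ADP-Hep replicate 2. Values of all other groups are in the order of replicates 1, 2 and 3.

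A Rab protein cycles between a GTP-bound form that sits on a membrane and recruits effectors and a GDP-bound form that is carried in the cytosol. Guanine nucleotide exchange factors (GEFs) load GTP, GTPase-activating proteins (GAPs) end the active state, and prenylation with the help of escort proteins delivers the Rab to its membrane. In macrophages Rab5 marks the early phagosome and Rab7 the late phagosome and lysosome, while other Rabs bring receptors to the surface, return endosomes to it, or carry cytokines and enzymes out of the cell.

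Levels are CPM, the reads of a gene scaled to a fixed library total, after TMM scaling, which adjusts library size for composition. Levels of different genes were compared only per kilobase of merged exon. The quasi-likelihood test of edgeR gave each log2 change, printed with an approximate standard error after the ± sign. A gene was called at a Benjamini-Hochberg adjusted p under 0.05 over the 12261 genes tested, and "rose" or "fell" is used only of called genes. Rab33a did not pass the filter on low counts, so 47 members were tested. Rows used held 12307826 to 25742912 counts per library, and the biological coefficient of variation was 4.81%. Macrophage markers summed to between 25000 and 29700 CPM in every library, with 9 of 9 detected. Pax5 of B cells and Cd3e, Cd3g and Ncr1 of T and NK cells were at 0 in all libraries, and the whole B cell list summed to 7.69 to 17.9 CPM and the T and NK cell list to 0.815 to 3.63 CPM. Platelet and erythroid markers summed to 318 to 323 CPM in WT ADP-Hep and 228 to 274 CPM in the other groups. Nearly all of this was Pf4, with means of 259, 320, 235 and 236 CPM in WT PBS, WT ADP-Hep, KO PBS and KO ADP-Hep. Itga2b was at 0.413, 0.268, 0.443 and 0.327 CPM in the same order, and Hbb-bs and Hba-a1 were at 0. The part of such cells in the results was not tested. Alpk1 itself was at 30.1, 32.1 and 25.9 CPM in WT PBS, 53.8, 55.3 and 52.3 CPM in WT ADP-Hep, 22.3, 20.3 and 21.3 CPM in KO PBS and 21.6, 19.2 and 22.5 CPM in KO ADP-Hep libraries. Both KO groups lay under both WT groups. Which exons were deleted is not stated, so these levels are no check of genotype.

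Promoter windows of the members that changed most in WT cells are shown because the genes moved in opposite directions under the same stimulus. Each window runs from 250 bases before to 50 bases after a RefSeq transcription start (GRCm38.p6, 300 bases, 5′ to 3′ on the gene's strand). RefSeq windows were matched for 40 of the 48 members (49 windows), with none for Rab7b or Rab4a. Rab20 (chr8:11478591-11478890, minus strand) had the largest rise and Rab10 (chr12:3309920-3310219, minus strand) the next. Rab27a fell most and has 2 starts, at chr9:73044560-73044859 and chr9:73063898-73064197 on the plus strand, and Rab9 (chrX:166479818-166480117, minus strand) fell next. Capitals mark the E-box CACGTG, and lower-case runs hold no match to any of the motifs searched.
Rab20: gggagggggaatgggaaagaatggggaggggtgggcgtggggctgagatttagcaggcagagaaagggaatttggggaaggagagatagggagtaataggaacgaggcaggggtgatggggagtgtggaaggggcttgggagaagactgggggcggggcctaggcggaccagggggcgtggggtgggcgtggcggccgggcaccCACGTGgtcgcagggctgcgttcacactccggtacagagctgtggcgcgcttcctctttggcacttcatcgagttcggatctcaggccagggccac
Rab10: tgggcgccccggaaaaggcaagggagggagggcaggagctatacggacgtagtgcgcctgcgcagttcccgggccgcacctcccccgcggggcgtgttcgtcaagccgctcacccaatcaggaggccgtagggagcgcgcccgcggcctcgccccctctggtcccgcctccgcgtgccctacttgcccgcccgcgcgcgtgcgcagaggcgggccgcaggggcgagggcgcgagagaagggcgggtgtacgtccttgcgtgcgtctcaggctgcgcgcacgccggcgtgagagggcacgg
Rab27a, first start: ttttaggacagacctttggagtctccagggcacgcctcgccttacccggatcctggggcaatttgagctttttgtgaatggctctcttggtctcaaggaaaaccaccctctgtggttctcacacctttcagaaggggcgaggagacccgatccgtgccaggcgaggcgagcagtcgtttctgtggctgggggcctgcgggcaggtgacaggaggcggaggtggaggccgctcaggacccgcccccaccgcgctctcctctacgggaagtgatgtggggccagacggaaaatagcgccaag
Rab27a, second start: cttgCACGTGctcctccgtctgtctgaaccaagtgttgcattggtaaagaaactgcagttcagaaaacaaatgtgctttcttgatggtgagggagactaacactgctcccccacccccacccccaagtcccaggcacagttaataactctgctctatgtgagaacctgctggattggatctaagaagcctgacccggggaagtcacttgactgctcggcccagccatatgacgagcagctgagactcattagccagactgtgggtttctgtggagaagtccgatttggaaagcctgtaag
Rab9: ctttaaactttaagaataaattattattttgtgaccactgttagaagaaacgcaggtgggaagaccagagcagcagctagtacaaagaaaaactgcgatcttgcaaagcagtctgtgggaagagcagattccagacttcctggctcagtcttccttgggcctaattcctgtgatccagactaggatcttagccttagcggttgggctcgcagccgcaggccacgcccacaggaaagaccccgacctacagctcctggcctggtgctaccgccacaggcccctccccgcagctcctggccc

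The motifs searched on both strands were the kappaB motif, the interferon response motif (TTTC, any 2 bases, TTTC), the AP-1 motif TGANTCA and the E-box CACGTG. The E-box lies at position -46 from the start of Rab20 and at -246 from the second start of Rab27a. Windows of Rab32 and Rab40c held no match either. Among the 13 members that rose in WT cells and have a window, Rab20, Rab21 and Rab5a held an E-box (23.1%), against 7.15% of all 32851 windows. Of the 14 that fell, Rab27a held an E-box (7.14%), Rab19 the interferon response motif and Rab34 the AP-1 motif. Of the 12 that were not called, Rab23 and Rab24 held an E-box (16.7%) and Rab28 the kappaB motif. No member that rose or fell held the kappaB motif in its window, which 4.51% of all windows held; the shares were 3.44% for the interferon response motif and 7.81% for AP-1. Rab33a, which was not tested, is the other member with a window. Members were counted once however many windows they have, so the 2 kinds of share are not on the same footing. These letters describe the windows and say nothing about factors bound there.

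**Figure D1:**
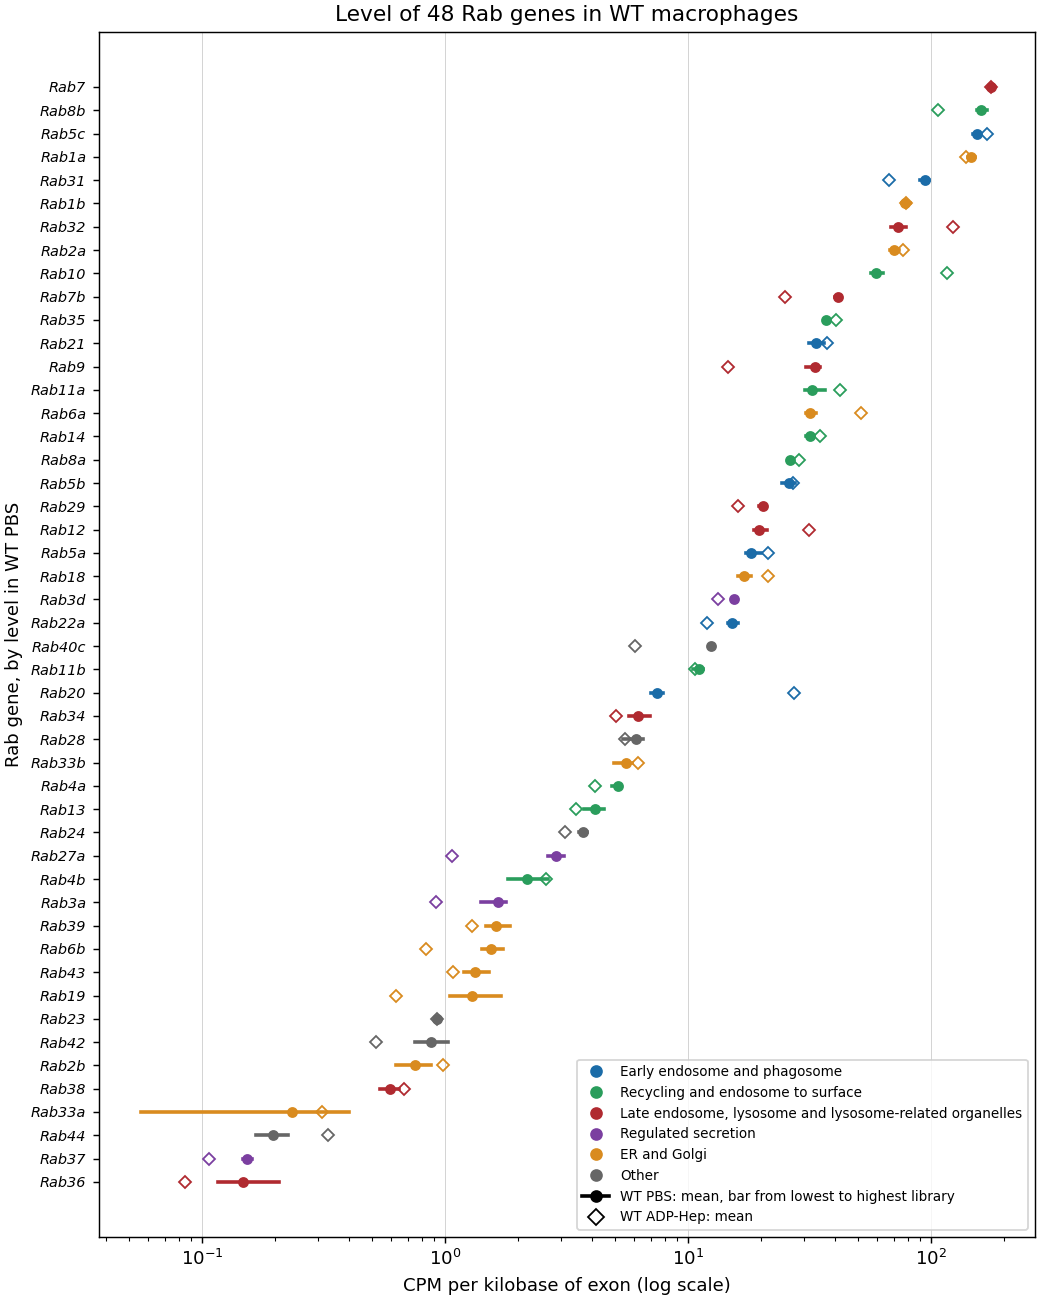
Level of each of the 48 Rab genes in WT macrophages, as CPM per kilobase of exon on a log scale. Filled points are WT PBS means with a bar from the lowest to the highest of 3 libraries, open diamonds are WT ADP-Hep means, and colours give the role. Levels span from 0.147 (Rab36) to 177 (Rab7) in WT PBS, and the diamond of Rab20 lies farthest to the right of its point.

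In unstimulated WT macrophages the highest Rab levels belonged to Rab7, Rab8b, Rab5c and Rab1a. Per kilobase, Rab7, the Rab of late endosomes and lysosomes, stood highest at 177 CPM per kb (175 to 178 over the 3 WT PBS libraries). Rab8b, which serves traffic to the cell surface, followed at 161 (154 to 170). Rab5c of early endosomes stood at 154 (148 to 157) and Rab1a of ER to Golgi transport at 146 (142 to 152). The ranges of Rab8b and Rab5c overlapped, as did those of Rab5c and Rab1a, so these neighbours in the order are not separated by their spread. The next was Rab31, a trans-Golgi and endosome Rab, at 94.0 CPM per kb. In all, 26 members reached 10 CPM per kb and 8 stayed under 1 CPM per kb, among them Rab38 (0.59), a melanosome Rab, Rab44 (0.195), Rab37 (0.153) and Rab36 (0.147). Rab20 (7.46) and Rab27a (2.86), which changed most with ADP-Hep, lay in the lower part of this order.

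Summed over the members, the level was 5316 ± 162 CPM in WT PBS, 5404 ± 43.4 CPM in WT ADP-Hep, 5198 ± 98.2 CPM in KO PBS and 5088 ± 60.3 CPM in KO ADP-Hep libraries (mean ± SD, n = 3). The WT PBS sum ran from 5174 to 5493 CPM and so spanned the WT ADP-Hep range of 5362 to 5449 CPM. KO ADP-Hep sums, from 5029 to 5149 CPM, lay under both WT ranges. KO PBS sums, from 5098 to 5294 CPM, overlapped those of KO ADP-Hep and WT PBS and lay under those of WT ADP-Hep. The sums were not tested. In bulk RNA, fewer cells of a type and less RNA per cell cannot be told apart.

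ADP-Hep moved as many Rab genes up as down in WT macrophages. Rab20, Rab10, Rab32, Rab6a and Rab12 were among those that rose, and Rab27a, Rab9, Rab40c, Rab7b and Rab8b among those that fell. Of 47 tested members, 16 rose and 16 fell, or 68.1%, where 63.5% of all genes tested were called (31.9% higher and 31.6% lower); a share this near the background is not a result about the family. The members' median log2 change was -0.06 beside -0.0058 over all genes, and the median size of change was 0.33 beside 0.34. At 2-fold or more, Rab20 rose, and Rab27a, Rab9, Rab40c and Rab19 fell, where 6.81% of all genes rose and 6.75% fell by that much. Library ranges of the groups did not overlap for 15 members that were higher and 19 that were lower, beside 65.9% of all genes, and in KO cells for 14 and 10 members, beside 42.1%. Scaling by library totals alone shifted the median of all genes to -0.1163 in this comparison. With it, 8 members were called higher and 24 lower, beside 2990 and 4927 of all genes. These totals are the counts of the tested genes in the rows used, not of the whole library. The rows used held from 71.3% (WT PBS replicate 1) to 85.2% (KO PBS replicate 2) of the counts of a library. Rises that lost their call under that scaling were those of Rab2a, Rab2b, Rab5a, Rab5c, Rab8a, Rab14, Rab21 and Rab35. The medians of roles and of regulator lists given further on were computed with TMM scaling alone.

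Several small WT changes lost their call when 1 library was left out, in fits that left out different libraries. Their log2 changes with all libraries were 0.12 for Rab2a, 0.37 for Rab2b, 0.13 for Rab35, 0.15 for Rab21 and 0.14 for Rab14. Those of the others were 0.13 for Rab8a, 0.14 for Rab5c, -0.27 for Rab13, -0.28 for Rab43 and -0.33 for Rab4a. Values in brackets below are from the reduced fits. Without WT PBS replicate 1 the rises of Rab2a (0.09), Rab2b (0.27), Rab35 (0.12), Rab21 (0.14), Rab14 (0.11) and Rab8a (0.12) were not called, which left 10 members called higher. Without WT PBS replicate 2 the call was lost for Rab2a (0.11), Rab35 (0.14), Rab21 (0.1), Rab8a (0.12), Rab13 (-0.22) and Rab43 (-0.18), and without WT PBS replicate 3 for Rab2b (0.38), Rab35 (0.13) and Rab13 (-0.26). Leaving out WT ADP-Hep replicate 1 removed the call of Rab14 (0.11), Rab2a (0.11), Rab35 (0.14) and Rab43 (-0.3). Leaving out WT ADP-Hep replicate 2 removed that of Rab21 (0.11), Rab2a (0.12), Rab2b (0.31), Rab13 (-0.2), Rab43 (-0.25) and Rab4a (-0.29), and leaving out replicate 3 that of Rab2b (0.36), Rab35 (0.09), Rab43 (-0.28), Rab5c (0.1) and Rab8a (0.1). Through the shared spread, the call of Rab35 (0.12) was also lost without KO ADP-Hep replicate 1 and that of Rab43 (-0.28) without the unnumbered library. The larger changes of Rab20, Rab10, Rab32, Rab12, Rab6a, Rab27a, Rab9, Rab40c, Rab7b, Rab8b and Rab31 in WT cells kept their calls in all 20 other settings.

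In KO macrophages, 4 members rose with ADP-Hep (Rab39, Rab44, Rab27a and Rab32) and 6 fell (Rab9, Rab20, Rab40c, Rab7b, Rab22a and Rab1a). That is 21.3% of the members, beside 28.9% of all genes (13.7% higher and 15.3% lower). Members' median log2 change was 0.02, beside 0.0052 for all genes. With library totals alone, 9 members were called higher and 5 lower, beside 2360 and 1483 of all genes. Without KO PBS replicate 1, and without KO ADP-Hep replicate 1, 2 members were called higher. The KO fall of Rab1a, from 516, 521 and 535 to 483, 462 and 486 CPM, was small (log2 -0.14 ± 0.04, adjusted p = 0.018). Its call was lost without KO PBS replicate 3 (-0.12) or KO ADP-Hep replicate 3 (-0.11). It was also lost with library totals alone and with no filter beyond 1 count. The difference between the WT and KO responses, tested as an interaction, was called for 24 members, 9 with a more positive and 15 with a more negative response in WT cells, or 51.1% beside 49.5% of all genes (24.6% and 24.9%). With library totals alone these were 5 and 18, beside 2020 and 4507 of all genes. Both responses were called for 8 members, beside 22.3% of all genes: Rab32 and Rab44 rose in both genotypes, Rab9, Rab40c, Rab7b and Rab22a fell in both, and Rab20 and Rab27a moved in opposite directions.

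**Figure D2:**
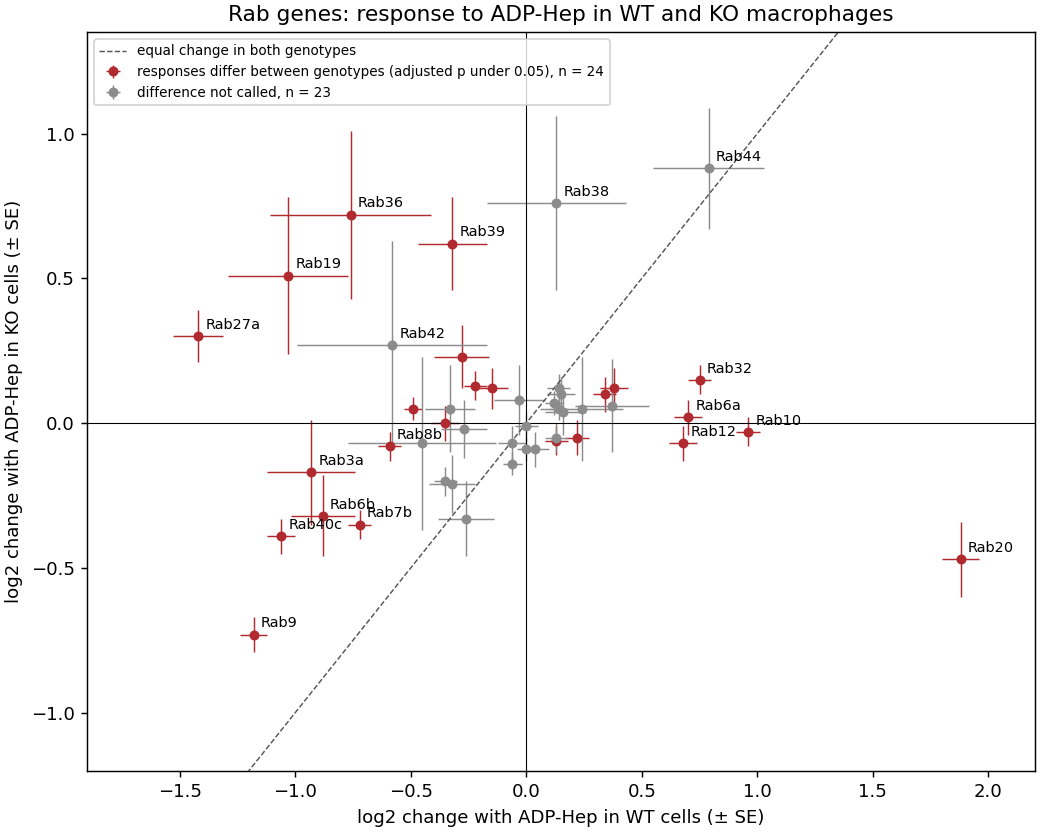
Log2 change with ADP-Hep in WT cells (x axis) and in KO cells (y axis) for 47 Rab genes, with SE bars; red points are the 24 genes whose responses differed by the interaction test and the dashed line marks equal change. Rab20 lies far to the right at 1.88 in WT and -0.47 in KO cells, Rab27a far to the left at -1.42 and 0.3, and Rab9 is low on both axes.

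Early endosome and phagosome Rabs had 4 members that rose in WT cells (Rab20, Rab5a, Rab21 and Rab5c) and 2 that fell (Rab31 and Rab22a). Rab5b was not called. Their median log2 change was 0.14, where 31.9% of all genes rose and 31.6% fell. Rab20 takes part in the maturation of phagosomes. It stood at 11, 9.83 and 10.3 CPM in WT PBS and 40.2, 38.0 and 35.9 CPM in WT ADP-Hep libraries. The KO libraries held 6.49, 5.99 and 6.12 CPM with PBS and 4.07, 4.01 and 5.23 CPM with ADP-Hep. All WT ADP-Hep libraries were far above every other library, and the KO ADP-Hep libraries were the lowest of all. The WT rise was 3.68-fold (log2 1.88 ± 0.08 SE, adjusted p = 2.1e-16), the KO fall was 1.39-fold (log2 -0.47 ± 0.13, adjusted p = 0.0067), and the interaction was 2.35 ± 0.15 (adjusted p = 2.4e-12). Without KO ADP-Hep replicate 1 the KO change was -0.39 and no longer called. Rab20 was also lower in KO than in WT cells under PBS (log2 difference -0.75 ± 0.11, adjusted p = 4.2e-05), so the genotypes already differed at rest.

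A gene on the opposite strand shares exon bases with Rab20. E230013L22Rik covers 356 of its 1392 exon bases (25.6%) and went from 0.898 CPM in WT PBS to 10.2 CPM in WT ADP-Hep, a log2 change of 3.52 (adjusted p = 6.2e-16), and was at 0.54 and 0.571 CPM in the KO groups. The library kit keeps strand, but the strand setting of the counting is not given in the sources used here, so reads of the shared bases cannot be assigned to either gene. How much of the Rab20 value they hold was not tested.

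Rab31 guides traffic between the trans-Golgi network and endosomes and was the most abundant early endosome member after Rab5c. Its level was 344, 357 and 374 CPM in WT PBS and 251, 261 and 254 CPM in WT ADP-Hep libraries, with no overlap. KO cells held 349, 365 and 364 CPM with PBS and 374, 368 and 375 CPM with ADP-Hep, so the treated WT libraries alone were low. The WT fall was -0.49 ± 0.04 on the log2 scale (adjusted p = 2.6e-10) and the interaction -0.54 ± 0.06 (adjusted p = 4.6e-08). Its close relative Rab22a fell in both genotypes, from 109 ± 5.34 to 85.5 ± 1.13 CPM in WT and from 107 ± 2.19 to 93.5 ± 0.551 CPM in KO cells (mean ± SD, n = 3), and the interaction was not called (adjusted p = 0.056).

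Rab5a, Rab5b and Rab5c are the fusion Rabs of the early endosome. Rab5a stood at 91.0, 92.1 and 105 CPM in WT PBS, 116, 113 and 107 CPM in WT ADP-Hep, 93.2, 97.2 and 96.9 CPM in KO PBS and 95.5, 88.4 and 92.6 CPM in KO ADP-Hep libraries. The WT ADP-Hep libraries lay above all others, though the nearest WT PBS library was close to them. The WT rise was 0.22 ± 0.05 (adjusted p = 0.0012) and the interaction 0.27 ± 0.08 (adjusted p = 0.0057); neither was called with library totals alone. Rab5c and Rab21, an integrin-traffic Rab, rose by 0.14 and 0.15 in WT cells, and their interactions were not called. With library totals alone these rises were 0.02 and 0.04 and not called. Rab5b had a log2 change of 0.04 ± 0.06 in WT cells (adjusted p = 0.55).

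Recycling and surface-delivery Rabs had 5 members that rose in WT cells (Rab10, Rab11a, Rab14, Rab8a and Rab35) and 3 that fell (Rab8b, Rab4a and Rab13). The 2 not called were Rab11b and Rab4b, where 31.9% of all genes rose and 31.6% fell. None of these 10 Rabs was called in KO cells, beside 28.9% of all genes. Rab10 brings receptors and transporters, among them TLR4 in macrophages, to the plasma membrane. It stood at 199, 204 and 222 CPM in WT PBS and 408, 407 and 405 CPM in WT ADP-Hep libraries. In KO cells it was at 208, 216 and 226 CPM with PBS and 214, 203 and 218 CPM with ADP-Hep. The treated WT libraries stood apart from the other 9, which overlapped one another. Its WT rise was 1.95-fold (log2 0.96 ± 0.05, adjusted p = 2.5e-15), its KO change -0.03 ± 0.05 (adjusted p = 0.66) and the interaction 1.0 ± 0.07 (adjusted p = 4.9e-12). Rab10os, on the opposite strand, shares 4.07% of its exon bases and had a log2 change of 0.13 in WT cells (adjusted p = 0.23).

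For Rab11a and Rab8a the WT response was also the more positive by the interaction test. Rab11a, the Rab of the recycling endosome, was at 90.8, 90.2 and 109 CPM in WT PBS and 132, 127 and 119 CPM in WT ADP-Hep, and at 95.1, 94.5 and 96.2 CPM in KO PBS and 105, 96.0 and 109 CPM in KO ADP-Hep libraries. Treated WT cells were the highest. The WT rise was 0.38 ± 0.06 (adjusted p = 2.2e-05) and the interaction 0.26 ± 0.09 (adjusted p = 0.025), which was lost in 6 of 19 other settings. These were library totals alone (0.1) and the fits without WT PBS replicate 1 (0.21) or 2 (0.21), WT ADP-Hep replicate 1 (0.22), KO PBS replicate 3 (0.25) or KO ADP-Hep replicate 3 (0.21). Rab8a, which works in exocytosis, was at 120, 121 and 126 CPM in WT PBS, 129, 134 and 139 CPM in WT ADP-Hep, 125, 125 and 123 CPM in KO PBS and 119, 115 and 121 CPM in KO ADP-Hep libraries. Its WT rise of 0.13 ± 0.05 (adjusted p = 0.015) and interaction of 0.19 ± 0.06 (adjusted p = 0.015) were small, and both were lost with library totals alone (0.02 and 0.04). The treated WT libraries were again the highest.

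Rab8b, the far more abundant partner of Rab8a, went the other way. It stood at 728, 752 and 806 CPM in WT PBS and 515, 521 and 478 CPM in WT ADP-Hep libraries. The KO libraries held 701, 714 and 715 CPM with PBS and 682, 659 and 671 CPM with ADP-Hep. Treated WT libraries were below all others with no overlap. The fall in WT cells was 1.51-fold (log2 -0.59 ± 0.05, adjusted p = 2.1e-11) and the interaction was -0.51 ± 0.06 (adjusted p = 3.3e-07). Rab8a thus made up 14.0 ± 0.336% of the pair per kilobase in WT PBS and 21.2 ± 1.37% in WT ADP-Hep, against 15 ± 0.238% and 15.2 ± 0.253% in KO PBS and KO ADP-Hep (mean ± SD, n = 3; the shares were not tested).

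Late endosome, lysosome and lysosome-related Rabs had 2 that rose in WT cells (Rab32 and Rab12) and 4 that fell (Rab9, Rab7b, Rab29 and Rab34). The 3 not called were Rab7, Rab38 and Rab36. Their role's median log2 change was -0.32, where 31.9% of all genes rose and 31.6% fell. Rab32 directs cargo to lysosome-related organelles and takes part in macrophage defence against bacteria in vacuoles. It was at 160, 169 and 184 CPM in WT PBS and 282, 287 and 298 CPM in WT ADP-Hep libraries. KO cells held 153, 157 and 156 CPM with PBS and 170, 169 and 178 CPM with ADP-Hep. Both responses were upward and free of overlap, and the WT one was larger. The WT rise was 1.68-fold (log2 0.75 ± 0.05, adjusted p = 6e-13) and the interaction 0.6 ± 0.07 (adjusted p = 7.6e-08). The KO rise of 0.15 ± 0.05 (adjusted p = 0.023) was lost in 5 of 20 other settings, among them without KO PBS replicate 1 (0.14) or 3 (0.15), KO ADP-Hep replicate 1 (0.16) or the unnumbered library (0.13).

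Rab12, which sends the transferrin receptor to lysosomes, stood at 57.6, 56.7 and 63.7 CPM in WT PBS and 95.7, 99.6 and 90.2 CPM in WT ADP-Hep libraries. In KO cells it was at 60.5, 59.4 and 61.7 CPM with PBS and 57.4, 54.8 and 60.1 CPM with ADP-Hep. In treated WT libraries it was above the other 9. Its WT rise was 0.68 ± 0.06 (adjusted p = 5.7e-11), its KO change -0.07 ± 0.06 (adjusted p = 0.39) and the interaction 0.75 ± 0.08 (adjusted p = 2.1e-08).

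Rab9 returns mannose 6-phosphate receptors from late endosomes to the Golgi and fell in both genotypes. It stood at 53.5, 59.8 and 60.7 CPM in WT PBS and 26.0, 25.6 and 24.8 CPM in WT ADP-Hep libraries. KO libraries held 68.3, 71.7 and 71.2 CPM with PBS and 43.9, 41.6 and 42.0 CPM with ADP-Hep. No 2 of the 4 groups overlapped, and KO cells were the higher genotype under either treatment. The WT fall was 2.27-fold (log2 -1.18 ± 0.06, adjusted p = 4e-15), the KO fall 1.65-fold (log2 -0.73 ± 0.06, adjusted p = 3.6e-10) and the interaction -0.46 ± 0.08 (adjusted p = 5.4e-05).

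Rab7b, a late endosome Rab linked to the breakdown of Toll-like receptors, fell in both genotypes from different starting levels. It was at 194, 196 and 185 CPM in WT PBS and 114, 118 and 117 CPM in WT ADP-Hep libraries. The KO libraries held 153, 160 and 153 CPM with PBS and 118, 127 and 122 CPM with ADP-Hep. The 2 treated groups lay next to each other at the bottom, while KO PBS lay between them and WT PBS. The fall was -0.72 ± 0.05 in WT (adjusted p = 4.6e-13) and -0.35 ± 0.05 in KO cells (adjusted p = 2.1e-06), with an interaction of -0.37 ± 0.07 (adjusted p = 4.1e-05). Rab7 itself stood at 462 ± 4.98 CPM in WT PBS and 461 ± 10.2 CPM in WT ADP-Hep libraries (mean ± SD, n = 3) and was not called (adjusted p = 0.95).

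Rab29, a Golgi and lysosome Rab that recruits the kinase LRRK2, stood at 28.8, 30.5 and 30.2 CPM in WT PBS, 23.1, 23.5 and 23.7 CPM in WT ADP-Hep, 28.0, 26.4 and 28.0 CPM in KO PBS and 28.9, 26.9 and 26.3 CPM in KO ADP-Hep libraries. Only the treated WT libraries were low. Its WT fall was -0.35 ± 0.06 (adjusted p = 3.1e-05) and the interaction -0.35 ± 0.09 (adjusted p = 0.0022). Rab36 was scarce, at 0.716, 1.28 and 0.722 CPM in WT PBS, 0.53, 0.446 and 0.605 CPM in WT ADP-Hep, 0.895, 1.14 and 0.725 CPM in KO PBS and 1.47, 1.89 and 1.39 CPM in KO ADP-Hep libraries. Its treated WT libraries were the lowest and its treated KO libraries the highest. Neither response passed the test, with -0.76 ± 0.35 in WT (adjusted p = 0.058) and 0.72 ± 0.29 in KO cells (adjusted p = 0.067), while the interaction was -1.48 ± 0.45 (adjusted p = 0.0085) on 203 counts over all 12 libraries.

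Of 4 regulated secretion Rabs, Rab27a, Rab3a and Rab3d fell in WT cells and none rose, where 31.9% of all genes rose and 31.6% fell. The median log2 change of the 4 was -0.69. Rab37, the other one, had a log2 change of -0.45 ± 0.32 (adjusted p = 0.23). Rab27a docks secretory granules and lysosome-related organelles at the plasma membrane. It stood at 11.1, 10.3 and 11.9 CPM in WT PBS and 4.08, 4.41 and 3.97 CPM in WT ADP-Hep libraries. In KO cells it was at 9.84, 10.5 and 10.2 CPM with PBS and 12.1, 13 and 12.9 CPM with ADP-Hep. Treated WT libraries were below, and treated KO libraries above, all others. The WT fall was 2.67-fold (log2 -1.42 ± 0.11, adjusted p = 1.1e-11) and the interaction -1.72 ± 0.14 (adjusted p = 2e-10). The KO rise of 0.3 ± 0.09 (adjusted p = 0.017) was lost in 4 of 20 other settings, including those without KO PBS replicate 1 (0.27) or the unnumbered library (0.28).

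Rab3a and Rab3d act in the exocytosis of granules. Rab3a was at 3.97, 3.13 and 3.91 CPM in WT PBS, 2.0, 1.52 and 2.59 CPM in WT ADP-Hep, 4.77, 3.78 and 3.47 CPM in KO PBS and 3.65, 3.77 and 3.29 CPM in KO ADP-Hep libraries, and Rab3d at 64.4, 63.9 and 66.2 CPM, 54.3, 54.7 and 58.5 CPM, 66.1, 65.7 and 63.4 CPM and 70.2, 71.3 and 71.7 CPM in the same groups. For either gene the treated WT libraries were the lowest. Rab3a fell by 0.93 ± 0.19 on the log2 scale in WT cells (adjusted p = 0.00014, interaction -0.75 ± 0.26, adjusted p = 0.018). That interaction was lost without WT ADP-Hep replicate 2 (-0.57) and with the DESeq2 test. Rab3d fell by 0.22 ± 0.05 (adjusted p = 0.00038, interaction -0.35 ± 0.07, adjusted p = 0.00021). Neutrophils also express granule Rabs. Their 9 markers summed to 206 to 227 CPM in WT PBS and 201 to 224 CPM in WT ADP-Hep libraries. The sums were 242 to 270 CPM in KO PBS and 169 to 179 CPM in KO ADP-Hep libraries. The WT sums hid opposite moves of single markers. From WT PBS to WT ADP-Hep, mean S100a8 went from 23.5 to 30.4 CPM and Ngp from 30.9 to 37.6 CPM. S100a9, Camp, Ltf and Ly6g were also higher. Csf3r, the largest part of the sum, went from 99.1 to 66 CPM, and Elane and Mpo were also lower. Ly6g had a mean of 0.173 CPM or less in every group. The sums therefore do not settle the neutrophil content. The part of neutrophils in the values of the secretion Rabs was not tested. Rab27b, the other Rab27 gene, had 0 counts in every library.

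**Figure D3:**
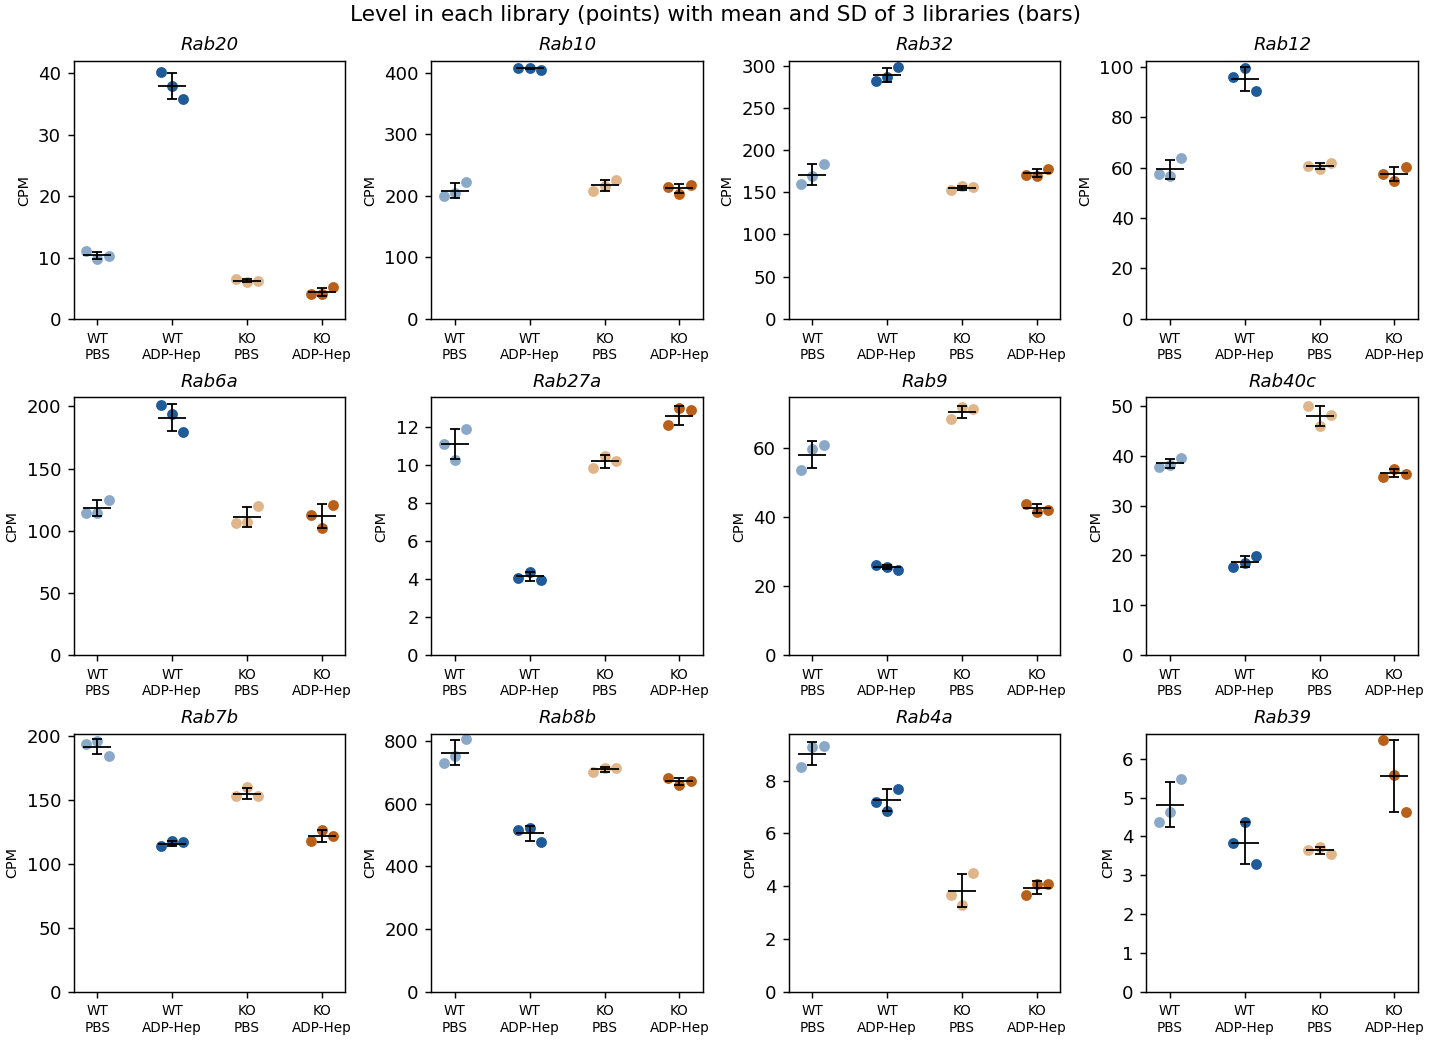
Level in CPM of 12 Rab genes in each of the 12 libraries (points) with the mean and SD of each group of 3 (bars). Rab20, Rab10, Rab32, Rab12 and Rab6a are highest in WT ADP-Hep, Rab27a, Rab9, Rab40c and Rab8b are lowest there, and Rab4a is low in both KO groups.

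ER and Golgi Rabs had 4 members that rose in WT cells (Rab6a, Rab2b, Rab18 and Rab2a) and 3 that fell (Rab19, Rab6b and Rab43). Another 4 of 11 tested were not called, where 31.9% of all genes rose and 31.6% fell. Rab6a runs transport between the Golgi, the ER and the cell surface, and secretion of TNF uses it in macrophages. It stood at 114, 114 and 125 CPM in WT PBS and 201, 194 and 179 CPM in WT ADP-Hep libraries. KO cells held 106, 107 and 120 CPM with PBS and 113, 102 and 121 CPM with ADP-Hep. The treated WT libraries stood above the other 9, with a rise of 1.62-fold (log2 0.7 ± 0.06, adjusted p = 1.1e-09) and an interaction of 0.68 ± 0.09 (adjusted p = 1.2e-06). Mrpl48 on the opposite strand covers 19.0% of its exon bases and had a log2 change of -0.15 in WT cells (adjusted p = 0.12).

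Rab6b, a relative of Rab6a known from neurons, went the other way. It was at 8.73, 7.12 and 7.35 CPM in WT PBS, 3.59, 4.82 and 4.23 CPM in WT ADP-Hep, 6.86, 8.27 and 8.14 CPM in KO PBS and 5.5, 7.7 and 5.92 CPM in KO ADP-Hep libraries. The treated WT libraries were the lowest. The fall was -0.88 ± 0.14 (adjusted p = 8.5e-06); the interaction of -0.55 ± 0.2 (adjusted p = 0.025) was lost in 5 of 19 other settings, among them without WT PBS replicate 1 (-0.47), WT ADP-Hep replicate 1 (-0.42), KO PBS replicate 1 (-0.48) or KO ADP-Hep replicate 3 (-0.43). Its share of the Rab6 pair per kilobase was 4.65 ± 0.643% in WT PBS, 1.61 ± 0.268% in WT ADP-Hep, 4.92 ± 0.449% in KO PBS and 4.09 ± 1.04% in KO ADP-Hep (mean ± SD, n = 3).

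Rab18, a Rab of the ER and lipid droplets, was at 111, 111 and 125 CPM in WT PBS, 154, 148 and 135 CPM in WT ADP-Hep, 106, 111 and 114 CPM in KO PBS and 117, 116 and 121 CPM in KO ADP-Hep libraries. The treated WT libraries were the highest, with a rise of 0.34 ± 0.05 (adjusted p = 7.7e-06) and an interaction of 0.24 ± 0.08 (adjusted p = 0.014), which was lost without WT ADP-Hep replicate 1 (0.2) and with library totals alone (0.08). Rab39 differed the other way: 4.36, 4.63 and 5.48 CPM in WT PBS, 3.83, 4.37 and 3.28 CPM in WT ADP-Hep, 3.65, 3.72 and 3.55 CPM in KO PBS and 6.47, 5.58 and 4.63 CPM in KO ADP-Hep libraries. Its KO groups did not overlap, while 1 WT ADP-Hep library reached the lowest WT PBS library. The KO rise was 0.62 ± 0.16 (adjusted p = 0.0044), the WT change -0.32 ± 0.15 (adjusted p = 0.066) and the interaction -0.94 ± 0.22 (adjusted p = 0.00092); without KO ADP-Hep replicate 1 the KO change was 0.46 and not called.

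Rab19 and Rab43 are Golgi Rabs of low level. Rab19 was at 2.67, 1.78 and 1.66 CPM in WT PBS, 0.815, 1.11 and 1.04 CPM in WT ADP-Hep, 0.969, 1.68 and 1.13 CPM in KO PBS and 1.97, 1.89 and 1.64 CPM in KO ADP-Hep libraries. It fell by 1.03 ± 0.26 in WT cells (adjusted p = 0.0014), with an interaction of -1.54 ± 0.37 (adjusted p = 0.0014), and 1 KO PBS library lay inside the KO ADP-Hep range. Rab43 was at 6.84, 8.4 and 6.63 CPM, 6.11, 5.75 and 5.96 CPM, 8.05, 8.27 and 6.85 CPM and 9.7, 8.48 and 8.91 CPM in the same order of groups. Its interaction of -0.51 ± 0.16 (adjusted p = 0.013) was lost without WT PBS replicate 2 (-0.4) and with the DESeq2 test. Treated WT libraries were the lowest and treated KO libraries the highest. Another annotated gene, Gm45140, covers 75.4% of the exon bases of Rab43 on the same strand, so its counts are uncertain. On the opposite strand, Gm43766 covers 59.3% of the exon bases of Rab2b and Prelid1 62.4% of those of Rab24.

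The remaining 6 members have varied roles, and Rab40c fell and Rab44 rose in WT cells. Rab40c is part of a ubiquitin ligase through its SOCS box. Its level was 37.8, 38.1 and 39.5 CPM in WT PBS and 17.7, 18.5 and 19.9 CPM in WT ADP-Hep libraries. KO cells held 49.9, 45.9 and 48.1 CPM with PBS and 35.8, 37.3 and 36.3 CPM with ADP-Hep. Treated WT libraries were by far the lowest and KO PBS libraries the highest. The WT fall was 2.08-fold (log2 -1.06 ± 0.06, adjusted p = 1.3e-13), the KO fall 1.31-fold (log2 -0.39 ± 0.06, adjusted p = 1e-05) and the interaction -0.66 ± 0.09 (adjusted p = 5.4e-07). Gm16278 on the opposite strand shares 3.33% of its exon bases and changed by -1.63 in WT cells (adjusted p = 2.7e-05).

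Rab44, a long Rab with extra domains, had the largest KO rise at a low level. It was at 0.847, 1.14 and 0.977 CPM in WT PBS, 1.75, 1.78 and 1.47 CPM in WT ADP-Hep, 1.57, 1.56 and 1.29 CPM in KO PBS and 3.07, 2.28 and 2.69 CPM in KO ADP-Hep libraries. Both genotypes rose without overlap, by 0.79 ± 0.24 in WT (adjusted p = 0.0059) and 0.88 ± 0.21 in KO cells (adjusted p = 0.0028). The interaction was -0.09 ± 0.33 (adjusted p = 0.84). Rab28, a Rab of the cilium, was at 24.4, 29.6 and 29.1 CPM in WT PBS, 24.1, 26.7 and 23.7 CPM in WT ADP-Hep, 24.8, 26.7 and 26.2 CPM in KO PBS and 28.7, 28.4 and 27.7 CPM in KO ADP-Hep libraries. Neither response was called, and the interaction of -0.28 ± 0.1 (adjusted p = 0.031) was lost in 7 of 19 other settings. These were the DESeq2 test (-0.27) and the fits without WT PBS replicate 2 (-0.23) or 3 (-0.23), WT ADP-Hep replicate 1 (-0.25) or 3 (-0.26), KO PBS replicate 1 (-0.25) or KO ADP-Hep replicate 1 (-0.26). The ranges of Rab28 overlapped between most groups. Rab23, Rab24 and Rab42 were called in neither genotype.

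Without ADP-Hep, few Rab genes differed between the genotypes. Rab40c and Rab9 were higher in KO PBS than in WT PBS libraries and Rab4a, Rab20 and Rab7b were lower, which is 10.6% of the 47 members beside 11.4% of all genes (5.57% higher and 5.82% lower). Without KO PBS replicate 1 the counts over all genes went from 683 to 438 higher and from 714 to 391 lower. Library ranges did not overlap for 5 higher and 8 lower members, beside 27.7% of all genes. These comparisons share their PBS libraries with the responses above. Rab4a, which returns cargo quickly from early endosomes to the surface, differed most. It was at 8.53, 9.26 and 9.3 CPM in WT PBS and 3.65, 3.3 and 4.51 CPM in KO PBS libraries. With ADP-Hep it stood at 7.21, 6.87 and 7.69 CPM in WT and 3.65, 4.08 and 4.08 CPM in KO cells. Both KO groups lay under both WT groups. The KO level was 2.39-fold lower under PBS (log2 -1.26 ± 0.13, adjusted p = 1.6e-07) and 1.84-fold lower under ADP-Hep (log2 -0.88 ± 0.12, adjusted p = 9.9e-07), and the responses were not called different (interaction -0.38 ± 0.18, adjusted p = 0.089). Rab40c differed by 0.31 ± 0.06 (adjusted p = 0.00061), Rab9 by 0.28 ± 0.06 (adjusted p = 0.0012) and Rab7b by -0.3 ± 0.05 (adjusted p = 5.2e-05).

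Under ADP-Hep the genotypes differed at 33 of 47 members, 19 higher and 14 lower in KO cells, or 70.2% beside 64.8% of all genes (32.8% higher and 32.0% lower). With library totals alone these were 25 and 7, beside 5609 and 2722 of all genes. Library ranges did not overlap for 20 higher and 14 lower members, beside 68.6% of all genes. Rab20 was lowest in KO against WT cells, at -3.1 ± 0.09 (adjusted p = 9.9e-20), then Rab10 at -0.94 ± 0.05 (adjusted p = 4e-15). Rab27a was highest at 1.59 ± 0.1 (adjusted p = 7.2e-13), then Rab36 at 1.58 ± 0.31 (adjusted p = 8.1e-05). These values use the same treated libraries as the interaction and add no separate evidence to it.

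**Figure D4:**
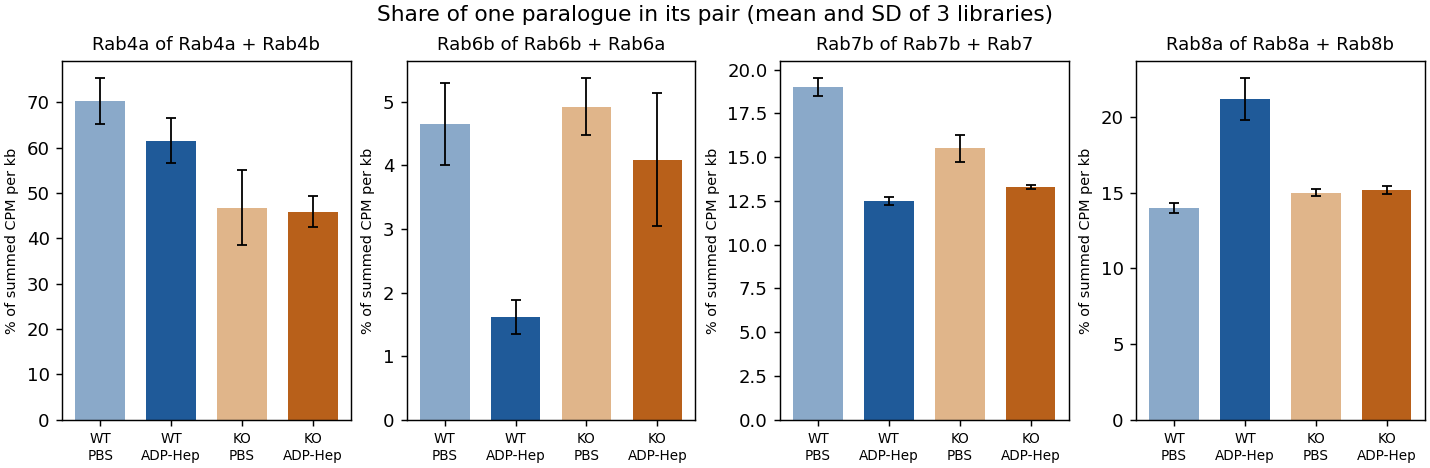
Share of 1 paralogue in its pair, as percent of the pair's summed CPM per kilobase of exon, in the 4 groups (bars are means and error bars SD of 3 libraries). The share of Rab4a is lower in both KO groups, Rab6b and Rab7b are lowest in WT ADP-Hep, and Rab8a is highest there.

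Within pairs of close relatives, the balance moved where the members moved apart. Rab4a made up 70.3 ± 5.01% of the Rab4 pair in WT PBS and 61.5 ± 4.93% in WT ADP-Hep, against 46.7 ± 8.26% in KO PBS and 45.9 ± 3.51% in KO ADP-Hep. The library ranges of WT PBS (64.7 to 74.5%) and WT ADP-Hep (58.2 to 67.2%) overlapped, and the shares were not tested. Rab7b made up 19.0 ± 0.518% of the Rab7 pair in WT PBS, 12.5 ± 0.245% in WT ADP-Hep, 15.5 ± 0.769% in KO PBS and 13.3 ± 0.14% in KO ADP-Hep. Rab11a held 74.3 ± 1.97% of the Rab11 pair in WT PBS and 79.7 ± 1.29% in WT ADP-Hep. Rab5c held between 77.7% and 79.7% of the Rab5 trio in every group. Reads that fit both members of a pair could have been split or dropped by the authors' counting. Gm21983 covers 65.0% of the exon bases of Rab4b on the same strand, with 0 counts of its own. If reads of the shared bases were dropped, the share of Rab4a would be too high in every group, which was not tested.

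Among genes that act on or with Rab proteins, more were called lower than higher in both genotypes, and the GAP list had the lowest WT median. Lists of delivery factors, GEFs, GAPs, effectors and Rab kinases had 119 tested genes, of which 30 rose and 54 fell in WT cells (median log2 -0.12, beside -0.0058 over all genes), where 31.9% of all genes rose and 31.6% fell. In KO cells 17 rose and 37 fell (median -0.07), where 13.7% and 15.3% of all genes did. The interaction was called for 24 with a more positive and 47 with a more negative WT response, where the shares over all genes were 24.6% and 24.9%. The lists were chosen with earlier results of these data known, so their counts are descriptions.

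Of 37 tested GAPs, mostly TBC-domain proteins that switch Rabs off, 5 rose and 23 fell in WT cells (median -0.33), beside 31.9% and 31.6% of all genes. In KO cells 4 rose and 15 fell (median -0.11), beside 13.7% and 15.3% of all genes. By the interaction test the WT response was more negative for 21 and more positive for 5, beside 24.9% and 24.6% of all genes. Tbc1d2, a GAP for Rab7, was at 26.0, 26.9 and 26.3 CPM in WT PBS and 5.87, 4.86 and 5.87 CPM in WT ADP-Hep, and at 22.8, 26.4 and 23.6 CPM in KO PBS and 13.3, 15.3 and 13.5 CPM in KO ADP-Hep libraries. It fell in both genotypes without overlap and was lowest in treated WT cells (log2 -2.26 ± 0.09 in WT, adjusted p = 6.6e-17; -0.81 ± 0.08 in KO, adjusted p = 4.7e-08; edgeR). Tbc1d4, a GAP for Rab10, fell by 1.39 ± 0.06 in WT cells (adjusted p = 2.5e-16) but rose by 0.34 ± 0.05 in KO cells (adjusted p = 3e-05). Its interaction was -1.74 ± 0.08 (adjusted p = 4.3e-15). Tbc1d9 changed by -1.29 ± 0.05 in WT cells (adjusted p = 7.7e-18) and Tbc1d14, which acts on recycling endosomes in autophagy, by -1.1 ± 0.05 (adjusted p = 1.2e-16). In KO cells the smallest p-values belonged to Rab3gap2 (-0.63 ± 0.05, adjusted p = 1.3e-10), Tbc1d15 (-0.65 ± 0.05, adjusted p = 3.9e-10) and Tbc1d9 (-0.57 ± 0.05, adjusted p = 7.3e-10).

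**Figure D5:**
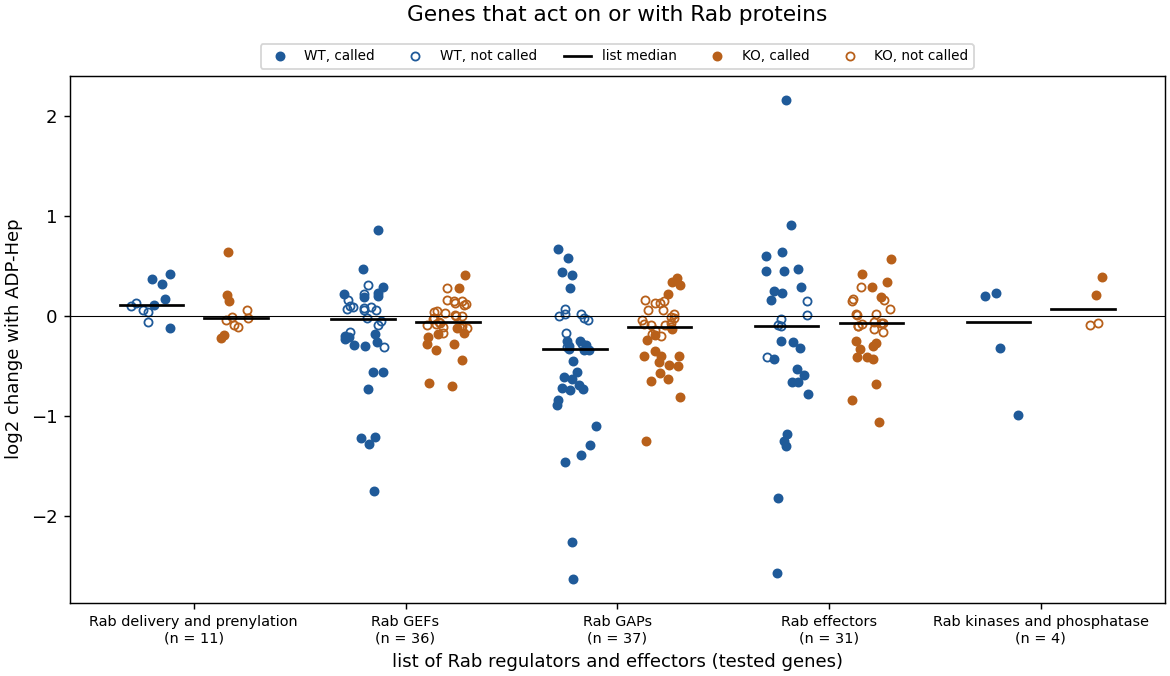
Log2 change with ADP-Hep of each tested gene in 5 lists of Rab regulators and effectors (filled points called, open points not called; blue WT cells, orange KO cells; black lines list medians). GAPs have the lowest WT median (-0.33), and Rab11fip1 stands highest at 2.16.

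Effectors, which carry out the work of active Rabs, had 31 tested genes, of which 11 rose and 14 fell in WT cells (median -0.1), beside 31.9% and 31.6% of all genes. Rab11fip1, which binds Rab11 and steers recycling, was at 15.7, 18.4 and 15.4 CPM in WT PBS and 69.8, 71.1 and 80.4 CPM in WT ADP-Hep, and at 13.9, 16.3 and 16 CPM in KO PBS and 15.2, 15.1 and 13.8 CPM in KO ADP-Hep libraries. Only the treated WT libraries were high, a 4.48-fold rise (log2 2.16 ± 0.07, adjusted p = 1.7e-18), with an interaction of 2.24 ± 0.12 (adjusted p = 5.6e-14). Plekhm1, which ties Rab7 on lysosomes to the fusion machinery, was at 421, 419 and 388 CPM in WT PBS and 110, 112 and 128 CPM in WT ADP-Hep, and at 459, 487 and 482 CPM in KO PBS and 259, 284 and 257 CPM in KO ADP-Hep libraries. It fell in both genotypes, by 1.82 ± 0.06 in WT (adjusted p = 2.5e-19) and 0.84 ± 0.05 in KO cells (adjusted p = 1.4e-11). Mical1, an actin-oxidising enzyme that binds Rab proteins, fell by 2.57 ± 0.09 in WT (adjusted p = 2e-18) and 1.06 ± 0.08 in KO cells (adjusted p = 3.7e-10). Rab11fip5 changed by -1.25 ± 0.05 in WT cells (adjusted p = 5.7e-17). Rilpl2 fell by 0.68 ± 0.05 in KO cells (adjusted p = 4e-10) but rose by 0.45 ± 0.05 in WT cells (adjusted p = 1.8e-08). Its interaction was 1.13 ± 0.07 (adjusted p = 1.8e-12; edgeR).

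Of 36 tested GEFs, 7 rose and 14 fell in WT cells (median -0.03), beside 31.9% and 31.6% of all genes. In KO cells 2 rose and 10 fell, beside 13.7% and 15.3%. Rab3il1, a GEF for Rab8 and Rab3a, had the smallest p-value and fell by 1.75 ± 0.05 in WT cells (adjusted p = 3.7e-20). Dennd4c, a GEF for Rab10, fell in WT (-1.22 ± 0.04, adjusted p = 3.4e-18) and in KO cells (-0.7 ± 0.04, adjusted p = 6.4e-12), although Rab10 itself rose in WT and was not called in KO cells. C9orf72, a DENN-domain protein, rose by 0.86 ± 0.05 in WT cells (adjusted p = 1.9e-13), and Dennd1b changed by -0.56 ± 0.06 (adjusted p = 3.1e-09). Ric1, a subunit of the GEF of Rab6, changed by -0.67 ± 0.05 in KO cells (adjusted p = 4.7e-10) and Dennd1a, a GEF for Rab35, by -0.44 ± 0.06 (adjusted p = 9.2e-07).

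Delivery and prenylation factors had 11 tested genes, of which 5 rose and 1 fell in WT cells (median 0.11), beside 31.9% and 31.6% of all genes. Chml, an escort protein for newly made Rabs, rose by 0.42 ± 0.07 in WT (adjusted p = 1.5e-05) and 0.64 ± 0.08 in KO cells (adjusted p = 5.1e-07). Yipf5 rose by 0.32 ± 0.05 (adjusted p = 1.1e-05) and Rabif by 0.17 ± 0.06 (adjusted p = 0.016) in WT cells. In KO cells Yipf5 changed by 0.21 ± 0.05 (adjusted p = 0.0042) and Rabac1 by -0.19 ± 0.05 (adjusted p = 0.0079). The list of Rab kinases and a phosphatase has 4 genes, all called in WT cells, where 63.5% of all genes were called. The phosphatase gene Ppm1h, whose enzyme reverses LRRK2's action on Rab8a and Rab10, fell by 0.99 ± 0.05 (adjusted p = 9.8e-16), and Lrrk2 fell by 0.32 ± 0.07 (adjusted p = 0.00029), whereas Tbk1 rose by 0.23 ± 0.05 (adjusted p = 0.00021) and Lrrk1 by 0.2 ± 0.05 (adjusted p = 0.0023). In KO cells Lrrk1 rose by 0.39 ± 0.05 (adjusted p = 3.3e-06) and Lrrk2 by 0.21 ± 0.07 (adjusted p = 0.028).

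Of the 11 matching symbols under the count minimum, Rab27b and Rab9b had 0 counts and Rab3b, Rab26, Rab25, Rab40b, Rab3c, Rab17 and Rab39b had 1 to 27. Rab30, a Golgi Rab, had 10, 8 and 4 counts in WT ADP-Hep libraries and 2 in each WT PBS library; too few for a test here. The 13 members called in neither genotype were Rab7, Rab1b, Rab11b, Rab5b, Rab4b, Rab24, Rab28, Rab33b, Rab23, Rab36, Rab37, Rab38 and Rab42. Of these, Rab7, the most abundant per kilobase, ran from 434 to 496 CPM over all 12 libraries.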

How the data were processed

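The measurement was RNA sequencing of total RNA with a stranded mRNA kit in 12 BMDM libraries, 3 in each of 4 groups. The authors deposited read counts per gene, not normalized; the submitters' processing notes list STAR, featureCounts, RSEM, DESeq2, Trim Galore and FastQC with the builds mm10 and hg38, and give no role or version, and the strand setting of the counting is not given in the sources used here. Further down the table the values in the KO columns are displaced by 1 row from their identifiers, so 19206 rows from that point on, with a margin of 100 rows, were not used; every matching Rab symbol lies in the rows used. Gene lengths came from GENCODE M21. The row that names no gene was left out.

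Counts were tested in R 4.3.3 with edgeR 4.0.16 (TMM, filterByExpr, robust quasi-likelihood fit of the 4 group means), with Benjamini-Hochberg adjustment over 12261 genes. The standard error is the log2 change divided by the square root of F. Alternatives were other scalings, filters and models, DESeq2 1.42.0, the replicate block and leaving out each library. Values in every library were given for members called in the interaction and for those with the largest changes, and regulators were named by smallest p (up to 4 per list in WT and 3 in KO cells); a gene that this rule names is not reported here. The members and lists were chosen with earlier results of these data known. Replicate numbers did not pair the libraries: correlations of same-numbered deviations ran from -0.37 to 0.219. Promoter windows came from RefSeq (GRCm38.p6).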

Additional observations from a re-analysis of the deposited data

Results flagged for a closer look

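The response to ADP-Hep differed between WT and KO macrophages for 24 of 47 tested Rab genes by edgeR's interaction test, beside 49.5% of all genes. The values below are the WT minus the KO log2 response. Among early endosome and phagosome Rabs it was positive for Rab20 (2.35) and Rab5a (0.27) and negative for Rab31 (-0.54). Among recycling and surface-delivery Rabs it was positive for Rab10 (1.0), Rab11a (0.26) and Rab8a (0.19) and negative for Rab8b (-0.51).

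Late endosome and lysosome Rabs with a positive difference were Rab12 (0.75) and Rab32 (0.6), and those with a negative difference were Rab36 (-1.48), Rab9 (-0.46), Rab7b (-0.37) and Rab29 (-0.35). The secretion Rabs Rab27a (-1.72), Rab3a (-0.75) and Rab3d (-0.35) had negative differences. ER and Golgi Rabs were positive for Rab6a (0.68) and Rab18 (0.24) and negative for Rab19 (-1.54), Rab39 (-0.94), Rab6b (-0.55) and Rab43 (-0.51). Of the other members, Rab40c (-0.66) and Rab28 (-0.28) were negative.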

How the results depend on the processing

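Over 20 other settings (19 for the interaction, which the fit of only the groups compared does not give), 12 of which leave out a library, 67 of 104 called member results kept their direction and call, 37 lost the call in at least 1 setting and 3 reversed. With library totals as the only scaling, members called higher were 8 in the WT response, 9 in the KO response and 5 in the interaction, and members called lower in KO against WT cells under ADP-Hep were 7; there Rab1a (0.0048), Rab2a (0.05) and Rab35 (0.01) reversed and were not called. That scaling moved the median of all genes by more than 0.1 on the log2 scale in the WT response, the interaction and the ADP-Hep comparison. With the DESeq2 test, 15 of the 104 member results were not called. Leaving out 1 library gave 10 to 16 members called higher in the WT response (10 without WT PBS replicate 1) and 2 to 6 in the KO response (2 without KO PBS replicate 1 or KO ADP-Hep replicate 1). In KO against WT under PBS it gave 438 to 772 genes called higher and 391 to 793 lower, the lowest without KO PBS replicate 1; the cause was not tested. With the replicate number as a block, on the 11 numbered libraries, 15 members were called higher and 16 lower in the WT response, 3 and 6 in the KO response and 10 and 15 in the interaction. The same libraries without the block, a setting chosen after seeing the data that equals leaving out the unnumbered library and was counted once, gave 16 and 15, 3 and 6, and 10 and 15. Libraries correlated best with their own number in 1 of 3, 2 of 3 and 1 of 3 cases. Depth limits Rab33a (68 counts over 12 libraries), Rab42 (144), Rab37 (175), Rab36 (203) and Rab38 (238) most.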
